A study of Mus musculus with 12 samples.

Results

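The genes described here were the 10 enzymes of de novo purine and pyrimidine synthesis named *Ppat*, *Gart*, *Paics*, *Adsl*, *Atic*, *Impdh2*, *Cad*, *Dhodh*, *Umps* and *Ctps*. They were chosen by name out of the 49585 genes counted, with earlier results of these data known, and comprised 6 in the purine branch and 4 in the pyrimidine branch. All 10 were measured in all 12 libraries and passed the filter on low counts in both kinds of library. The study deleted *Rnmt*, the mRNA cap guanosine N-7 methyltransferase, in T cells. Control mice were *Rnmt* fl/fl CD4cre - and *Rnmt* cKO mice were *Rnmt* fl/fl CD4cre +, all female, so both genotypes carried the floxed allele and only the latter carried the Cre, which acts from the double positive thymocyte stage onwards. Naive CD4 T cells from lymph nodes were activated for 20 h on plates coated with antibodies to CD3 (5 ug/ml) and CD28 (1 ug/ml), and were given 0.1 mg/ml cycloheximide for 1 min before lysis. Cytoplasmic total RNA and ribosome protected fragments (RPFs) were sequenced from 3 samples of each genotype, at 15079703 to 22629563 reads on genes in total RNA and 4123271 to 10661356 in RPF. The shallowest RPF library was *Rnmt* cKO replicate 3.

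Purine synthesis builds the base step by step on a ribose phosphate, ending in IMP, which is then turned into AMP or GMP. Pyrimidine synthesis builds the ring first, attaches the ribose phosphate to make UMP, and makes CTP from UTP. Resting T cells live largely on salvaged nucleosides, whereas activated T cells, which copy their genome and make much ribosomal RNA, depend on the de novo routes, and inhibitors of IMPDH and DHODH are used as immunosuppressants for that reason. Many of these enzyme genes are known *Myc* targets.

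The labels were checked first on the deleted gene. *Rnmt* total RNA was at 95.5, 94.1 and 94.3 CPM (read counts scaled to library size and by TMM) in the control libraries and at 29.3, 32.4 and 30.4 CPM in *Rnmt* cKO. Its RPF level was 104, 87.9 and 98.9 CPM in control and 10.5, 10.4 and 9.60 CPM in *Rnmt* cKO. All 12 libraries thus matched their genotype label. The 8 CD4 T cell markers were all detected in every library and summed to 3160, 3106 and 2947 CPM in control and 2778, 3011 and 3194 CPM in *Rnmt* cKO total RNA. In RPF they summed to 6030, 5346 and 5624 CPM in control and 5189, 4652 and 5154 CPM in *Rnmt* cKO, and the genotypes did not overlap there, with the lower sums in *Rnmt* cKO. The sums hid changes in both directions: *Cd3d*, *Cd5* and *Trac* were called decreased, at log2 fold changes of -0.74, -0.65 and -0.33 in total RNA and -0.43, -0.60 and -0.46 in RPF, and the activation markers *Il2ra* and *Cd69* increased, at 0.81 and 0.85 in total RNA and 0.78 and 0.74 in RPF, while *Cd3e*, *Cd4* and *Cd28* were not called in either. B cell markers were uneven: the 5 other than *Ighm* summed to 9.45, 6.03 and 32.7 CPM in control total RNA and to 84.4, 108 and 19.6 CPM in *Rnmt* cKO total RNA. In RPF the same sums were 11.7, 8.40 and 40.9 CPM in control and 131, 142 and 21.8 CPM in *Rnmt* cKO. *Rnmt* cKO replicates 1 and 2 thus stood above all other libraries. With *Ighm*, the most abundant of the 6, the total RNA sums were 294, 290 and 297 CPM in control and 321, 308 and 210 CPM in *Rnmt* cKO, and no B cell marker was at 0 in any library. The 2 CD8 T cell markers summed to 21.2, 21.4 and 40.5 CPM in control and to 25.8, 22.0 and 10.1 CPM in *Rnmt* cKO total RNA. NK cell markers, of which *Eomes* was the most abundant, summed to 5.46, 6.03 and 7.12 CPM in control and 22.3, 40.2 and 25.1 CPM in *Rnmt* cKO. The defining NK cell markers *Ncr1* and *Klrb1c* had at most 12 and 9 reads in any total RNA library and were each at 0 in at least 1 control library. The 2 regulatory T cell markers, *Foxp3* and *Ikzf4*, summed to 4.83, 4.49 and 4.92 CPM in control and to 8.09, 11.7 and 8.09 CPM in *Rnmt* cKO total RNA. The higher sums of these lists in *Rnmt* cKO rested on *Eomes* and *Ikzf4*: the defining regulatory T cell marker *Foxp3* had 17, 15 and 13 reads in control and 13, 7 and 9 reads in *Rnmt* cKO total RNA, and *Klrd1* was at 2.97, 2.91 and 4.04 CPM in control and 1.90, 2.22 and 3.46 CPM in *Rnmt* cKO. Of the 5 myeloid markers between 1 and 4 were at 0 in each total RNA library, and their sum was under 1 CPM in every library. For B cells, results for the 10 genes are also given without the 2 *Rnmt* cKO mice with the high marker sums where that ends a call or moves a value by over 1.5 times; the part of the other cells, and of the lower CD4 T cell marker sums in RPF, was not tested.

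The purine genes *Ppat* and *Paics* lie head to head on chromosome 5 and overlap by 272 bases, on opposite strands, which the counts kept apart. Of the 10 genes, 9 were found in the RefSeq promoter sequences of GRCm38.p6, which run from 250 bases before to 50 bases after the transcription start, and *Dhodh* was not. The letters CACGTG, the canonical E-box that *Myc* and *Max* are known to bind and which reads the same on both strands, occurred in 3 of the 9 windows, and in 7.15% of all 32851 promoter windows. The 3 matches are printed because *Paics*, *Atic* and *Impdh2* differed in how they responded to *Rnmt* loss. Each is a run of 30 bases on the plus strand, with the E-box in capitals, from chr5:76951087-76951116 for *Paics*, chr1:71557126-71557155 for *Atic* and chr9:108560314-108560343 for *Impdh2*.
Paics: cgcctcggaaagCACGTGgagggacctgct
Atic: gaggaggggcgggacctcggggtCACGTGg
Impdh2: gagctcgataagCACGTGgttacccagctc
The E-box began 203 bases upstream of the RefSeq start of *Paics*, 7 bases upstream of that of *Atic* and 110 bases upstream of that of *Impdh2*. In GENCODE vM21 the *Paics* run falls in an exon of *Ppat* on the other strand, annotated as UTR, and the *Atic* and *Impdh2* runs fall in part or whole in 5' exon sequence of their own genes, annotated as UTR, since the annotated starts differ from those of RefSeq. A match of letters does not show that a factor binds there. By the RefSeq start, the first transcribed base was A in 4 of the 9 genes, G in 4 and C in *Ppat* only, and it was C in 16.3% of all promoter windows.

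All 10 genes were above most genes in total RNA of activated control cells, and *Paics* led the list. Levels were compared between genes per kilobase, of exons for total RNA and of coding sequence for RPF. The order in control total RNA was *Paics*, which makes SAICAR in the middle of the purine route, at 202 ± 15.9 RPKM (SD, n = 3), then *Gart* at 96.0 ± 2.61, *Atic* at 94.4 ± 4.47, *Umps* at 77.1 ± 4.67, *Adsl* at 69.4 ± 4.95, *Ppat* at 58.6 ± 1.39, *Ctps* at 35.8 ± 1.46, *Cad* at 26.3 ± 1.57, *Impdh2* at 24.5 ± 0.326 and *Dhodh* at 20.6 ± 1.18 RPKM. The ranges of the control libraries overlapped for the neighbours *Gart* and *Atic*, *Umps* and *Adsl*, and *Cad* and *Impdh2*, and not for the other neighbours. *Paics* was above 98.5% and *Dhodh* above 70.7% of the 10268 genes ranked. In control RPF the order was *Paics* at 356 ± 26.9 CPM per kilobase of coding sequence, *Atic* at 329 ± 17.4, *Adsl* at 293 ± 1.90, *Umps* at 275 ± 15.7, *Gart* at 255 ± 8.24, *Ppat* at 240 ± 13.4, *Cad* at 126 ± 2.52, *Ctps* at 62.5 ± 1.57, *Dhodh* at 34.4 ± 0.654 and *Impdh2* at 22.6 ± 2.70 (SD, n = 3). *Paics* was above 95.9% of the 10321 genes ranked in RPF, *Dhodh* above 58.9% and *Impdh2* above 48.3%. Neighbours whose control ranges overlapped here were *Paics* and *Atic*, *Umps* and *Gart*, and *Gart* and *Ppat*.

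The level of *Impdh2* is a lower limit. A processed pseudogene, *Impdh2-ps* at chr8:100030558-100032102, was 99.7% identical to the *Impdh2* transcript over 1545 aligned bases, and the deposited counts leave out reads that align in several places. *Impdh2-ps* itself had 581 reads in total RNA and 209 in RPF over all libraries, so the *Impdh2* counts are uncertain and rest on the reads that could be placed, 306 to 869 per library in total RNA and 57 to 408 in RPF. The *Impdh2* changes in total RNA, RPF and TE given below rest on the same reads.

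In total RNA the purine genes split, with 3 lower and 3 higher in *Rnmt* cKO, and 3 of the 4 pyrimidine genes were higher. Over the 10 genes 3 passed the test as decreased and 6 as increased (edgeR quasi-likelihood test, Benjamini-Hochberg adjusted p below 0.05), while of all 11519 genes tested 28.0% decreased and 26.3% increased, so that most genes were called and the count of members stands against that background. The genotypes did not overlap for 9 of the 10 genes, against 62.3% of all genes. The median log2 fold change was 0.24 over the 10 genes, 0.03 over the purine branch and 0.68 over the pyrimidine branch, against 0.00 over all genes. These values are relative to the RNA sequenced, and in bulk samples fewer cells of a type and less RNA per cell cannot be told apart. If each *Rnmt* cKO library is lowered by 30% to stand for a smaller mRNA content per cell, 6 of the 10 genes were called decreased and 2 increased, against 68.6% and 7.33% of all genes. Since that setting shifts every gene alike, *Ppat* and *Atic* became lower, at -0.29 and -0.25, and *Adsl*, at -0.03, and *Cad*, at 0.00, were not called.

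**Figure D1:**
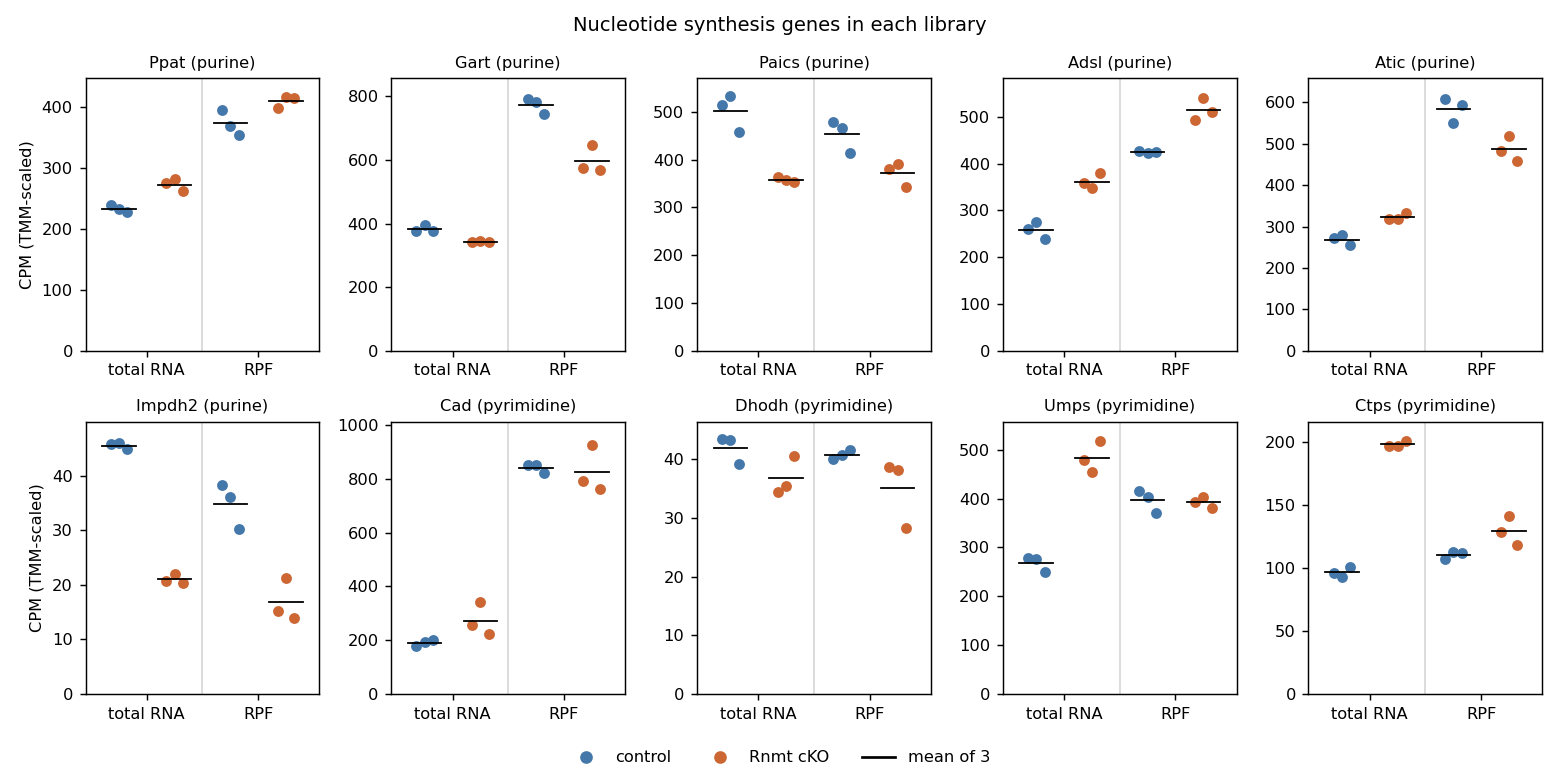
CPM of each of the 10 genes (y axis, scaled by TMM, from 0) in the 3 control (blue) and 3 *Rnmt* cKO (orange) libraries of total RNA and RPF, with black bars for the mean of 3. *Umps* and *Ctps* were higher in every *Rnmt* cKO library of total RNA, and for *Umps* the genotypes overlapped in RPF.

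*Impdh2*, IMP dehydrogenase, which makes the step from IMP towards GMP, fell the most of the 10 genes. Its total RNA was at 45.9, 46.0 and 44.9 CPM in control and 20.8, 22.0 and 20.3 CPM in *Rnmt* cKO. The control libraries were close together and every *Rnmt* cKO library was far below them, a log2 fold change of -1.12 (SE 0.07, edgeR adjusted p = 1.6e-05). *Paics* was at 515, 533 and 457 CPM in control and 363, 357 and 353 CPM in *Rnmt* cKO. Every *Rnmt* cKO library lay below the lowest control, at a log2 fold change of -0.49 (SE 0.07, edgeR adjusted p = 7.7e-04). *Gart*, a single protein that carries several early purine steps, was at 376, 395 and 378 CPM in control and 343, 344 and 341 CPM in *Rnmt* cKO. This was a small difference without overlap, at a log2 fold change of -0.16 (SE 0.05, edgeR adjusted p = 0.036). Leaving out any 1 of the 6 libraries ended the call, with edgeR adjusted p between 0.054 and 0.11, as did DESeq2 (adjusted p = 0.051), edgeR's exact test, the absence of a filter on low counts and library size without TMM. Without the 2 *Rnmt* cKO mice with high B cell markers it was -0.14 (edgeR adjusted p = 0.19).

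The other purine genes rose in total RNA. *Adsl*, adenylosuccinate lyase, which acts both before IMP and on the way from IMP to AMP, was at 261, 274 and 238 CPM in control and 358, 347 and 379 CPM in *Rnmt* cKO. The groups were well apart, at a log2 fold change of 0.49 (SE 0.07, edgeR adjusted p = 7.9e-04). *Atic*, which carries the last steps to IMP, was at 272, 279 and 254 CPM in control and 317, 317 and 333 CPM in *Rnmt* cKO. Its log2 fold change was 0.26 (SE 0.06, edgeR adjusted p = 0.0068), with all 3 *Rnmt* cKO libraries above all 3 control libraries. *Ppat*, the amidotransferase that commits ribose phosphate to purine synthesis, was at 239, 232 and 228 CPM in control and 275, 282 and 261 CPM in *Rnmt* cKO. That made a log2 fold change of 0.23 (SE 0.06, edgeR adjusted p = 0.010), again without overlap. It was 0.19 without the 2 *Rnmt* cKO mice with high B cell markers (edgeR adjusted p = 0.072, 1 *Rnmt* cKO library left, assumed to vary like the others). Relative to the RNA sequenced, the head-to-head neighbours *Ppat* and *Paics* thus changed in opposite directions in total RNA. With *Rnmt* cKO values lowered by 30%, which shifts every gene alike, *Ppat* was lower too, at -0.29.

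Among the pyrimidine genes *Ctps*, *Umps* and *Cad* rose in total RNA, *Ctps* the most. *Ctps*, CTP synthase 1, was at 96.5, 93.2 and 101 CPM in control total RNA and at 197, 197 and 201 CPM in *Rnmt* cKO. All 3 *Rnmt* cKO libraries were close together and far above control, 2.05-fold higher at a log2 fold change of 1.03 (SE 0.05, edgeR adjusted p = 9.2e-06). *Umps*, which makes UMP from orotate, was at 279, 277 and 250 CPM in control and 479, 455 and 518 CPM in *Rnmt* cKO. The groups did not overlap and the log2 fold change was 0.85 (SE 0.07, edgeR adjusted p = 7.0e-05). *Cad*, the multifunctional protein of the first pyrimidine steps, was at 178, 193 and 201 CPM in control and at 255, 342 and 222 CPM in *Rnmt* cKO. *Rnmt* cKO replicate 2, which also had the highest sum of the B cell markers other than *Ighm*, was well above the other libraries. The log2 fold change of *Cad* was 0.52 (SE 0.14, edgeR adjusted p = 0.017), 0.47 without control replicate 1 (adjusted p = 0.067), 0.34 and still called without *Rnmt* cKO replicate 2, and 0.25 without the 2 *Rnmt* cKO mice with high B cell markers (adjusted p = 0.056). *Dhodh*, the mitochondrial enzyme that makes orotate, was at 43.5, 43.3 and 39.2 CPM in control and 34.4, 35.5 and 40.5 CPM in *Rnmt* cKO. *Rnmt* cKO replicate 3 lay within the control range, and the log2 fold change of -0.19 (95% confidence interval -0.38 to 0.01, edgeR adjusted p = 0.097) did not pass the test. Without that replicate it was -0.25 and did (edgeR adjusted p = 0.028), and without the 2 *Rnmt* cKO mice with high B cell markers it was -0.02 (adjusted p = 0.88).

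In RPF, 4 of the 6 purine genes were lower, *Adsl* alone was called higher, and none of the pyrimidine genes was called. Of the 10 genes 4 were called decreased and 1 increased, while of all 11428 genes tested 15.7% decreased and 14.1% increased. The genotypes did not overlap for 8 of the 10 genes, against 46.5% of all genes. The median log2 fold change was -0.11 over the 10 genes, -0.27 over the purine branch and -0.02 over the pyrimidine branch, against 0.01 over all genes. With *Rnmt* cKO libraries lowered by 30%, which shifts every gene alike, all 10 were called decreased, and so were 63.3% of all genes.

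*Impdh2* RPFs were at 38.3, 36.2 and 30.3 CPM in control and 15.2, 21.2 and 14.0 CPM in *Rnmt* cKO. As in total RNA each *Rnmt* cKO library was far below control, at a log2 fold change of -1.03 (SE 0.17, edgeR adjusted p = 0.0031). *Gart* RPFs were at 793, 783 and 745 CPM in control and 576, 647 and 569 CPM in *Rnmt* cKO. They were clearly apart, at a log2 fold change of -0.37 (SE 0.07, edgeR adjusted p = 0.0060), and the call held with each of the 6 mice left out. *Paics* RPFs were at 480, 466 and 415 CPM in control and 380, 392 and 344 CPM in *Rnmt* cKO, a log2 fold change of -0.29 (SE 0.08, edgeR adjusted p = 0.027) without overlap. *Atic* RPFs were at 609, 550 and 595 CPM in control and 484, 519 and 458 CPM in *Rnmt* cKO, at -0.26 (SE 0.07, edgeR adjusted p = 0.026). *Atic* RNA was therefore higher and its RPFs lower in the same cells, with no overlap in either kind of library. Both of these smaller changes were near the threshold. The call of *Paics* was lost without control replicate 1 or 2 or *Rnmt* cKO replicate 1 or 3 (edgeR adjusted p between 0.064 and 0.079), and that of *Atic* without control replicate 1 or 3 or *Rnmt* cKO replicate 1 or 3 (between 0.072 and 0.079). The call of *Atic* was also lost in edgeR's exact test (adjusted p = 0.053) and with library size without TMM (edgeR adjusted p = 0.054). Without the 2 *Rnmt* cKO mice with high B cell markers the values were -0.40 for *Paics* and -0.36 for *Atic* (edgeR adjusted p = 0.074 for both).

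*Adsl* RPFs were at 428, 422 and 424 CPM in control and 492, 539 and 509 CPM in *Rnmt* cKO, at a log2 fold change of 0.27 (SE 0.06, edgeR adjusted p = 0.010). It was the only 1 of the 10 genes that passed as increased in both kinds of library. Without the 2 *Rnmt* cKO mice with high B cell markers the value was 0.26 (edgeR adjusted p = 0.099). *Ppat* RPFs, at 395, 368 and 354 CPM in control and 399, 416 and 414 CPM in *Rnmt* cKO, did not overlap by a narrow margin, and the log2 fold change of 0.14 (95% confidence interval -0.01 to 0.28) did not pass the test (edgeR adjusted p = 0.14).

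In the pyrimidine branch, *Umps* RPFs were at 416, 402 and 371 CPM in control and 392, 403 and 381 CPM in *Rnmt* cKO. The *Rnmt* cKO libraries lay inside the control range, at a log2 fold change of -0.02 (95% confidence interval -0.16 to 0.13), or -0.06 without the 2 *Rnmt* cKO mice with high B cell markers (edgeR adjusted p = 0.73). *Cad* RPFs were at 852, 850 and 822 CPM in control and 792, 927 and 762 CPM in *Rnmt* cKO, with replicate 2 highest as in total RNA. Its log2 fold change was -0.02 (95% confidence interval -0.21 to 0.17). *Ctps* RPFs were at 108, 113 and 112 CPM in control and 129, 142 and 118 CPM in *Rnmt* cKO. All 3 *Rnmt* cKO libraries were above control, but the log2 fold change of 0.23 (95% confidence interval 0.05 to 0.41) missed the threshold (edgeR adjusted p = 0.055). Without *Rnmt* cKO replicate 3, the shallowest library, it was 0.29 and passed (edgeR adjusted p = 0.021), and without the 2 *Rnmt* cKO mice with high B cell markers it was 0.09 (adjusted p = 0.58). *Dhodh* RPFs were at 40.0, 40.7 and 41.6 CPM in control and 38.7, 38.2 and 28.3 CPM in *Rnmt* cKO, the last from 115 reads. The log2 fold change was -0.20 (95% confidence interval -0.48 to 0.08) and was not called, and without that library it was -0.08. With that library as the only *Rnmt* cKO library, the other 2 being those with high B cell markers, the values were -0.53 for *Dhodh* and -0.15 for *Cad* in RPF (edgeR adjusted p = 0.073 and 0.33).

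**Figure D2:**
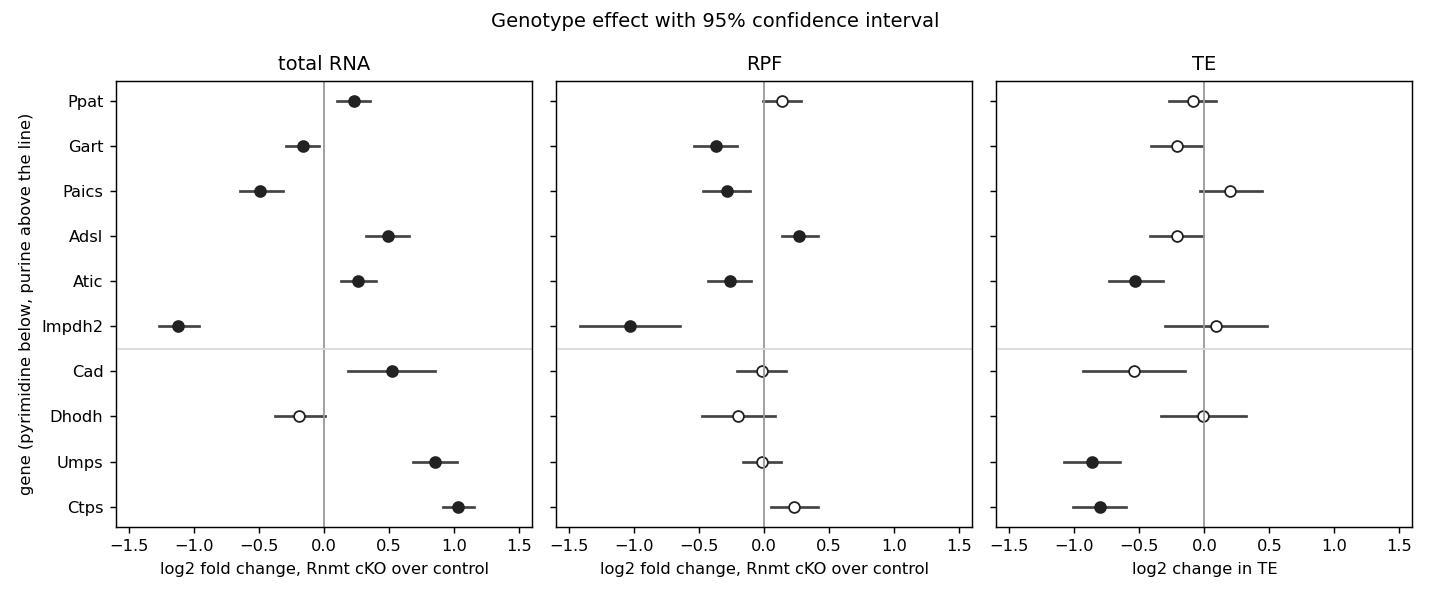
Log2 fold change of *Rnmt* cKO over control in total RNA and RPF, and log2 change in translational efficiency (TE), for each of the 10 genes (x axis), with lines for 95% confidence intervals and filled points for calls at an adjusted p below 0.05. *Umps*, *Ctps* and *Atic* have filled points left of 0 in the TE panel, at -0.86, -0.80 and -0.53.

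Translational efficiency (TE), the RPF level relative to the total RNA level, fell for *Umps*, *Ctps* and *Atic* and was called higher for none of the 10 genes. It was tested as the interaction of genotype and kind of library over all 12 libraries. Of the 10668 genes tested 6.57% had decreased and 3.24% increased TE, and the median change was -0.21 over the 10 genes, -0.67 over the pyrimidine branch and -0.15 over the purine branch, against 0.04 over all genes. These are shifts relative to other mRNAs, since each kind of library is scaled to its own total.

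For *Umps* the log2 ratio of RPF to total RNA CPM was 0.57, 0.54 and 0.57 in the control pairs and -0.29, -0.18 and -0.44 in the *Rnmt* cKO pairs. The control values were nearly equal and all *Rnmt* cKO values were below 0, a TE change of -0.86 (SE 0.10, edgeR adjusted p = 1.5e-04). For *Ctps* the ratio was 0.16, 0.28 and 0.15 in control and -0.62, -0.47 and -0.77 in *Rnmt* cKO. Again the sign differed between genotypes in every pair, and the change was -0.80 (SE 0.09, edgeR adjusted p = 1.6e-04). For *Atic* it was 1.16, 0.98 and 1.23 in control and 0.61, 0.71 and 0.46 in *Rnmt* cKO, without overlap, a change of -0.53 (SE 0.09, edgeR adjusted p = 0.0034). These 3 calls held with each of the 6 mice left out and without the 2 *Rnmt* cKO mice with high B cell markers.

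For *Cad* the log2 ratio of RPF to total RNA CPM was 2.26, 2.14 and 2.03 in control and 1.64, 1.44 and 1.78 in *Rnmt* cKO. The groups did not overlap, yet the change of -0.54 (95% confidence interval -0.93 to -0.15) did not pass the test (edgeR adjusted p = 0.083). With the total RNA and RPF libraries of a mouse paired by a replicate block the change was -0.52 and passed (edgeR adjusted p = 0.013). It also passed in DESeq2, at -0.55 (adjusted p = 0.024), and in edgeR without *Rnmt* cKO replicate 2, at -0.44 (adjusted p = 0.035), or 3, at -0.62 (adjusted p = 0.031), but not without the 2 *Rnmt* cKO mice with high B cell markers, at -0.38 (adjusted p = 0.19). *Gart* had ratios of 1.08, 0.99 and 0.98 in control and 0.75, 0.91 and 0.74 in *Rnmt* cKO. Its change of -0.21 (95% confidence interval -0.41 to -0.02, edgeR adjusted p = 0.16) was not called, nor was that of *Adsl* at -0.21 (95% confidence interval -0.42 to -0.01, edgeR adjusted p = 0.18), which became -0.32 without those 2 mice (adjusted p = 0.29). *Paics* was the only 1 of the 10 with a higher ratio in all *Rnmt* cKO pairs, at 0.07, 0.13 and -0.04 against -0.10, -0.19 and -0.14 in control. Its change was 0.20 (95% confidence interval -0.03 to 0.44, edgeR adjusted p = 0.28), and 0.09 without the 2 *Rnmt* cKO mice with high B cell markers (adjusted p = 0.87). The intervals were -0.27 to 0.09 for *Ppat*, -0.30 to 0.48 for *Impdh2* and -0.33 to 0.32 for *Dhodh*. Without the same 2 mice *Ppat* moved from -0.09 to -0.03, *Dhodh* was at -0.50 and *Impdh2* at -0.18 (edgeR adjusted p = 0.94, 0.18 and 0.80), so for the latter pair the data leave room for changes of some size in either direction.

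**Figure D3:**
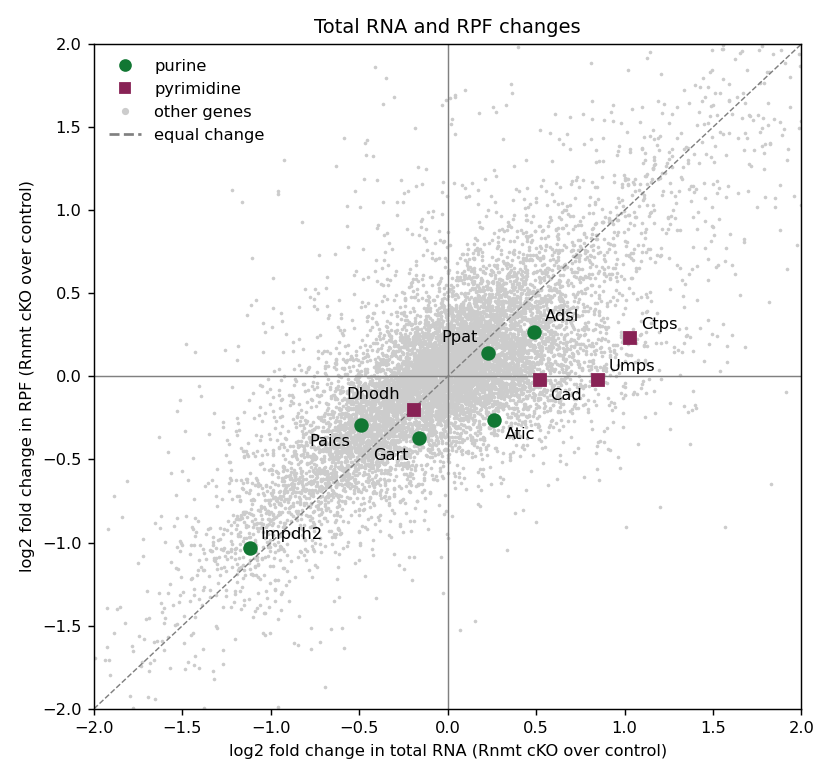
Log2 fold change in RPF (y axis) against that in total RNA (x axis), *Rnmt* cKO over control, for the 10668 genes tested in both (grey, with 216 beyond the axes at 2 not shown), purine genes (green circles) and pyrimidine genes (purple squares); the dashed line marks equal change. *Cad*, *Umps* and *Ctps* lie to the right of the line and close to 0 in RPF, and *Impdh2* lies near the line at -1.12 and -1.03.

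Summed per library, with no test, the 4 pyrimidine genes took 597, 607 and 591 CPM of control total RNA and 966, 1030 and 981 CPM of *Rnmt* cKO total RNA. Their RPFs summed to 1415, 1406 and 1347 CPM in control and to 1352, 1510 and 1290 CPM in *Rnmt* cKO, so the libraries that were apart in total RNA overlapped in RPF. The 6 purine genes took 1709, 1760 and 1601 CPM of control total RNA and 1676, 1670 and 1688 CPM of *Rnmt* cKO total RNA, and here it was RPF that lay apart, at 2743, 2625 and 2564 CPM in control and 2346, 2534 and 2308 CPM in *Rnmt* cKO. Over all 10 genes the mean sum was 2288 ± 89.0 CPM in control and 2670 ± 28.6 CPM in *Rnmt* cKO total RNA, and 4033 ± 124 and 3780 ± 234 CPM in RPF (SD, n = 3).

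Other genes of nucleotide metabolism and upstream regulators, in 6 lists, were described by the same tests. Their counts stand against the shares over all genes given above, in total RNA 28.0% decreased and 26.3% increased, in RPF 15.7% and 14.1%, and in TE 6.57% and 3.24%. Of the 17 other genes of de novo purine synthesis and nucleotide phosphorylation 14 could be tested, and 5 decreased and 5 increased in total RNA (median -0.09), 2 and 2 in RPF (median -0.06), and 3 and 1 in TE. *Ak4*, a mitochondrial adenylate kinase, had a log2 fold change of -1.31 in total RNA (edgeR adjusted p = 4.8e-04) and *Prpsap2*, a partner protein of ribose phosphate pyrophosphokinase, of -0.93 (edgeR adjusted p = 6.4e-04). *Prps1*, the pyrophosphokinase that makes the ribose phosphate donor of both branches, rose by 1.12 in total RNA and 0.75 in RPF (edgeR adjusted p = 0.0033 and 0.0072). *Prpsap2* was also lower in RPF, at -0.69, as was the mitochondrial *Ak3*, at -0.78. In TE, *Prpsap1* had a change of -0.78 and *Impdh1*, the other IMP dehydrogenase gene, of -0.56, while *Guk1*, guanylate kinase, had 0.43 (edgeR adjusted p = 3.4e-04, 0.013 and 0.048).

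All 13 other pyrimidine and deoxynucleotide genes were tested, with 3 decreased and 1 increased in total RNA (median -0.13), 1 and 0 in RPF (median 0.00), and 1 and 1 in TE. *Ctps2*, the second CTP synthase gene, had a log2 fold change of -0.87 in total RNA and -0.59 in RPF (edgeR adjusted p = 1.7e-04 and 4.3e-04), and thus fell where *Ctps* rose in total RNA. Of the ribonucleotide reductase subunits, *Rrm2*, which is made in S phase, rose by 0.59 in total RNA and *Rrm2b*, known as a p53 target, had -0.67 (edgeR adjusted p = 0.0081 and 0.0026). The TE of *Rrm2* changed by -0.85 (edgeR adjusted p = 0.013), and the TE of *Cmpk1*, UMP/CMP kinase, by 0.32 (edgeR adjusted p = 0.046).

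In the salvage list 13 of 17 genes were tested, with 5 decreased and 3 increased in total RNA (median -0.08), 2 and 2 in RPF (median -0.19), and 0 and 1 in TE. *Dguok*, the mitochondrial deoxyguanosine kinase, fell by 1.03 in total RNA and by 0.80 in RPF on the log2 scale (edgeR adjusted p = 1.0e-04 and 6.9e-04). The uridine-cytidine kinase *Uck1* rose by 0.95 and 0.65 (edgeR adjusted p = 5.6e-05 and 0.0030), whereas *Uckl1*, a relative of it, had -0.80 and -0.48 (edgeR adjusted p = 0.0013 and 0.043). *Adk*, adenosine kinase, was the gene with increased TE, at 0.38 (edgeR adjusted p = 0.036). Of the 17 genes of nucleotide breakdown 12 were tested, with 6 decreased and 2 increased in total RNA (median -0.26), 4 and 1 in RPF (median -0.22), and 1 and 1 in TE. *Nt5e*, the surface enzyme CD73 that makes adenosine from AMP, was at 32.8, 74.7 and 26.0 CPM in control and 7.33, 8.20 and 8.60 CPM in *Rnmt* cKO total RNA, and at 24.9, 62.3 and 19.2 CPM in control and 3.51, 4.59 and 6.89 CPM in *Rnmt* cKO RPF. The controls differed widely among themselves, replicate 2 being highest, but all lay above *Rnmt* cKO. The log2 fold changes of *Nt5e* were -2.46 (SE 0.39) in total RNA and -2.88 (SE 0.48) in RPF (edgeR adjusted p = 0.0011 and 0.0033), and -1.87 and -2.21 without control replicate 2. *Ampd3*, AMP deaminase 3, had -1.32 and -1.82 (edgeR adjusted p = 0.0023 and 0.024), and *Xdh*, xanthine dehydrogenase, rose by 1.47 in total RNA (edgeR adjusted p = 0.0029). *Nt5c3b*, a cytosolic nucleotidase, had -0.58 in RPF and -0.37 in TE, and *Nt5c* had 0.32 in TE (edgeR adjusted p = 9.5e-04, 0.037 and 0.030).

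Of the 7 nucleoside transporters 4 could be tested, and these 4 were called in total RNA, as were 54.2% of all genes. *Slc28a2*, a concentrative nucleoside transporter, and *Slc29a1*, the main equilibrative one, had log2 fold changes of -1.20 and -0.76 in total RNA and of -0.62 and -0.72 in RPF (edgeR adjusted p = 1.2e-04, 2.9e-04, 0.0055 and 0.0010). *Slc29a3*, a transporter of lysosomes and mitochondria, rose by 1.58 in total RNA and had a TE change of -1.40 (edgeR adjusted p = 9.7e-05 and 3.7e-04). Over the 4 transporters 2 decreased and 2 increased in total RNA (median -0.04), 2 and 0 in RPF (median -0.30), and 1 and 0 in TE.

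The 13 genes of the upstream regulator list, chosen by name, were all tested. Of these, 3 decreased and 4 increased in total RNA (median 0.11), 0 and 3 in RPF (median 0.10), and 1 and 1 in TE. *Myc* rose by 1.57 in total RNA and by 1.08 in RPF (edgeR adjusted p = 9.5e-04 and 2.8e-04). *Sp1* rose by 0.98 in total RNA and 0.25 in RPF (edgeR adjusted p = 1.5e-04 and 0.013), with a TE change of -0.73 (edgeR adjusted p = 0.0022). *Mnt*, which competes with *Myc* for *Max*, rose by 0.67 in total RNA (edgeR adjusted p = 0.017). *Atf4*, the stress response factor, rose by 0.61 in RPF and by 0.51 in TE (edgeR adjusted p = 0.0071 and 0.039). Of the 3 genes with an E-box in the promoter window, *Paics* and *Impdh2* were lower and *Atic* higher in total RNA. Among those without one in their window, *Gart* was lower and *Ppat*, *Adsl*, *Cad*, *Umps* and *Ctps* higher. Whether *Myc* or any other gene of this list had a part in these changes was not tested.

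Some of these list calls were lost when 1 mouse was left out, fewest in total RNA. The setting without the 2 *Rnmt* cKO mice with high B cell markers leaves 1 *Rnmt* cKO library. Calls were lost there over all genes too, so a lost call alone does not show that a gene depends on those mice. Of the 18 list genes named for a change in total RNA, *Mnt* at 0.41 and *Rrm2* at 0.37 lost the call in that setting. *Myc*, *Prps1* and *Xdh* had the smaller values of 1.02, 0.64 and 0.81. *Mnt* also lost its call without control replicate 1, and *Ampd3* passed the filter in total RNA in 3 of the 6 settings that leave out 1 mouse. Of the 15 named in RPF, *Atf4*, *Nt5e*, *Prps1*, *Prpsap2*, *Slc28a2*, *Sp1*, *Uck1* and *Uckl1* lost the call without the 2 mice. Among these only *Prps1* moved by over 1.5 times, down to 0.39. With 1 mouse left out in turn, 4 of the 15 lost the call in at least 1 setting, *Uckl1* in 5 of 6, *Prpsap2* in 3, *Ampd3* in 2 and *Sp1* in 1. *Ampd3* had 1 RPF read in *Rnmt* cKO replicate 3, the only *Rnmt* cKO library left without the 2 mice. Its RPF value in that setting was -4.17 and rests on that read. Of the 11 named in TE, *Prpsap1*, *Slc29a3* and *Sp1* held both without the 2 mice and with each mouse left out. Each of the other 8 lost the call in 2 to 5 of the 6 settings that leave out 1 mouse. These 8 were *Adk*, *Atf4*, *Cmpk1*, *Guk1*, *Impdh1*, *Nt5c*, *Nt5c3b* and *Rrm2*. They also lost it without the 2 mice, where only *Guk1*, at 0.18, and *Impdh1*, at -0.30, moved by over 1.5 times.

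**Figure D4:**
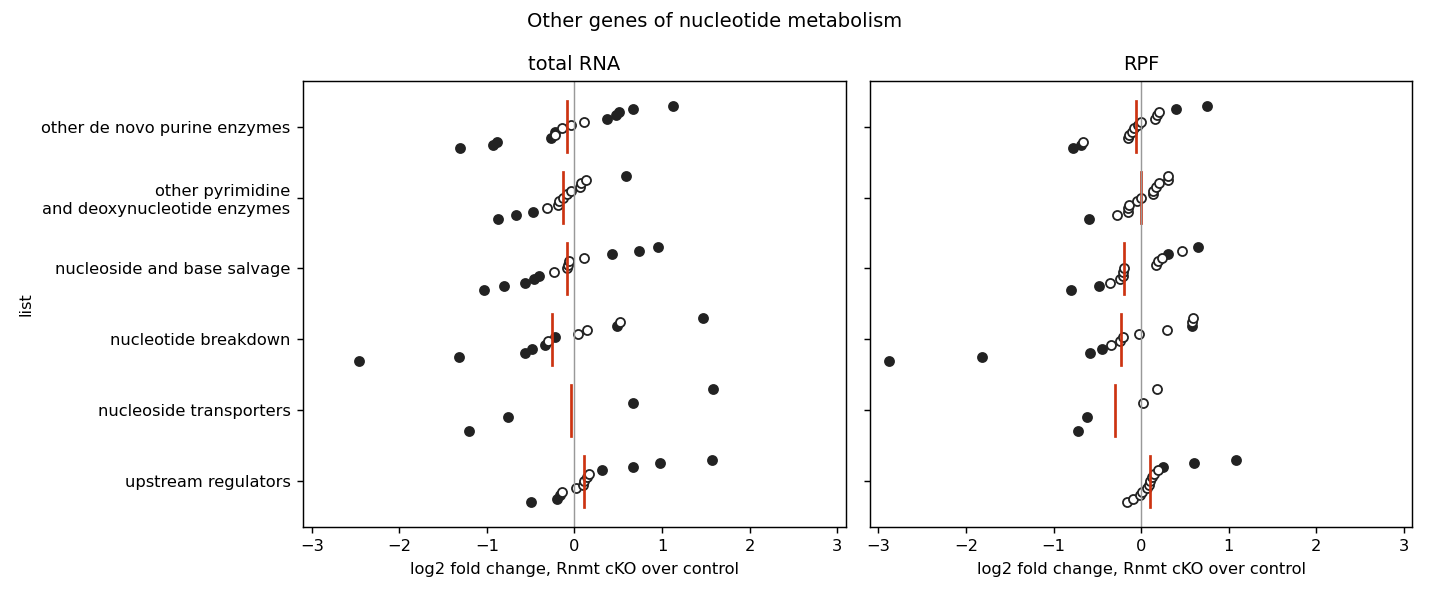
Log2 fold change of *Rnmt* cKO over control (x axis) in total RNA and RPF for the 6 lists of nucleotide metabolism and regulator genes. Points are filled for calls at an adjusted p below 0.05 and open for genes not called, and red bars mark the median. Filled points lie on both sides of 0 in total RNA in every list, and the medians there run from -0.26 to 0.11.

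Across the 12 libraries the 10 genes did not move as 1 group. After centring log2 CPM within each kind of library, the correlation of each gene with the mean of the 10 was highest for *Atic* (Pearson r = 0.92), *Umps* (0.70) and *Cad* (0.67), and it was 0.02 for *Impdh2* and -0.11 for *Paics*. Each gene is part of that mean, and libraries of a genotype share most of the difference. Of the 6598 other genes searched, those most like the mean were *Cct4*, a chaperonin subunit (r = 0.93 over 12 libraries), *4930453N24Rik* (r = 0.91) and *Aco1* (r = 0.91). Their log2 fold changes were 0.32, 0.41 and 0.15 in total RNA and -0.14, -0.36 and -0.14 in RPF, given without a test. Since the 3 genes were chosen for their likeness to the mean, a direction shared with it follows from that choice.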

How the data were processed

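Reads from 12 libraries of cytoplasmic total RNA and RPFs, made with the Illumina Truseq Ribo Profile kit, were processed by the authors: read 2 was trimmed with Cutadapt, ribosomal RNA and tRNA reads were removed with Bowtie, and the rest were aligned to mm10 (GENCODE vM12) with STAR 2.5.2b. The authors deposited whole-number counts of uniquely aligned reads per gene, and a table of 10126 genes with a normalized signal per library, which the deposited counts of the reverse strand gave up to 1 factor per library (relative spread at most 1.0e-14). That table held all 10 members and served for symbols, and its fold changes, p-values and TE values were not used. Unmapped, multimapping, unassigned and ambiguous reads, which name no gene, stayed out: in total RNA 7.48 to 10.7% were unmapped and 24.3 to 30.1% multimapping, in RPF 26.5 to 33.6% and 22.9 to 31.0%. Counts include PCR duplicates.

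The filter kept genes that exceeded 1 CPM in 3 or more libraries out of 6, applied to total RNA and RPF apart (TE needed both). Genotypes were compared after TMM scaling with edgeR 4.0.16 (quasi-likelihood, R 4.3.3), for TE as an interaction over 12 libraries, with Benjamini-Hochberg adjustment over all genes tested and a threshold of 0.05. The scripts were tested on simulated data. The study's RiboDiff was not used here. An exact permutation test of 3 against 3 cannot go below 0.1. The labels number the samples of a genotype without naming animals, so a mouse here means a genotype and number, and the p-values measure only the spread between these samples, which may be technical. RPKM used GENCODE vM21 lengths and promoters came from RefSeq (GRCm38.p6). The text names all members, up to 3 called genes per list and kind, *Rnmt*, and the 3 genes most like the member mean (average log2 CPM of at least 4, pseudocount 0.5 CPM). Members and lists were chosen with earlier results of these data known.

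Total RNA and RPF libraries of the same genotype and number deviated together from their group means (r 0.11 to 0.37 for the 6 same-number pairs over 10668 genes), so they were also paired by mouse in TE. Alternatives were DESeq2 1.42.0, edgeR's exact test, other filters and normalizations, both strands, each mouse left out, replicate blocks, *Rnmt* cKO values lowered by 30% and, chosen after seeing the data, leaving out 2 *Rnmt* cKO mice.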

Additional observations from a re-analysis of the deposited data

Results flagged for a closer look

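The genotype effect differed between RPF and total RNA, by the interaction test of edgeR over 12 libraries, for 3 of the 10 genes. Of all 10668 genes tested, 9.81% were called in that test. The effect in RPF minus that in total RNA was -0.86 on the log2 scale for *Umps*, -0.80 for *Ctps* and -0.53 for *Atic*, with the ratio of RPF to total RNA lower in 3 of 3 *Rnmt* cKO pairs for each. Groups of 3 libraries were too small for a search for single outlying samples.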

How the results depend on the processing

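*Umps*, *Ctps* and *Atic* in TE, *Impdh2*, *Paics*, *Adsl*, *Atic*, *Umps* and *Ctps* in total RNA, and *Impdh2* and *Gart* in RPF kept their direction and call under DESeq2, edgeR's exact test (total RNA and RPF), both other filters, both other normalizations, both strands, the replicate block and each mouse left out. Each replicate left out in turn gave 2 to 4 members decreased and 1 to 2 increased in RPF. Of all genes, 11.3 to 13.6% decreased and 9.68 to 12.6% increased in RPF in these settings. In TE, leaving out 1 replicate gave 415 to 812 decreased and 122 to 367 increased over all genes. It also moved values near 0 to the other side: RPF changes ranged from -0.07 to 0.01 for *Umps* and from -0.11 to 0.04 for *Cad*, and TE changes from -0.13 to 0.18 for *Dhodh* and from -0.10 to 0.17 for *Impdh2*. Without the 2 *Rnmt* cKO mice with high B cell markers, chosen after seeing the data, 2 members decreased and 0 increased in RPF, all genes gave 520 decreased and 477 increased in RPF and 294 and 81 in TE, and the TE changes were -0.18 for *Impdh2* and -0.50 for *Dhodh*. This setting leaves fewer samples.

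With *Rnmt* cKO values lowered by 30%, a shift of -0.51 for every gene, all genes gave 7899 decreased and 844 increased in total RNA and 7239 and 423 in RPF, and the members 6 and 2 in total RNA and 10 and 0 in RPF. By the construction of this setting, log2 values became -0.03 for *Adsl*, -0.25 for *Atic*, -0.29 for *Ppat* and 0.00 for *Cad* in total RNA, and -0.24 for *Adsl*, -0.28 for *Ctps*, -0.38 for *Ppat* and -0.27 for *Sp1* in RPF. Library size without TMM gave 2 members increased in RPF (*Adsl*, and *Ctps* at 0.25, adjusted p = 0.048 by edgeR), against 15.1% of all genes. It also gave 0.00 for *Cad* and 0.01 for *Umps* in RPF, and no call for *Atic* in RPF (edgeR adjusted p = 0.054). Without a filter on low counts 214 genes increased in TE, and *Dhodh* in TE was 0.01, or 0.04 with upper quartile normalization; the cause was not tested.

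Control and *Rnmt* cKO samples of the same number did not all deviate together (r -0.23, -0.17 and -0.48 in total RNA and 0.28, -0.12 and 0.12 in RPF), and most did not correlate best with their own number. A replicate block by number gave 2751 decreased and 2455 increased genes in total RNA, 1636 and 1596 in RPF and 635 and 313 in TE, and among the members ended the call of *Gart* in total RNA (edgeR adjusted p = 0.11). The replicate block by mouse in TE gave 777 and 426, and of the members added *Cad*. Low counts limit *Impdh2* and *Dhodh* most, with 57 and 115 RPF reads in the shallowest library. For *Impdh2*, reads that also align to *Impdh2-ps* are left out of the counts as well.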
